A study of Mus musculus with 77 samples.

Results

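The genes described here encode the proteins of the tight junction and the gap junction, followed through an endocrine program driven by the transcription factor Ngn3 in organoids grown from the ducts of the adult mouse pancreas. They were chosen by symbol from the count table: 32 claudins (Cldn genes), 3 MARVEL proteins (Ocln, Marveld2 and Marveld3), 3 junctional adhesion molecules (F11r, Jam2 and Jam3), 4 scaffold proteins (Tjp1, Tjp3, Cgn and Cgnl1), 7 polarity proteins (Pard3, Pard6a, Pard6b, Prkci, Crb3, Patj and Mpp5) and 16 connexins (Gja, Gjb, Gjc and Gjd genes). This made 65 of the 46078 genes of the table, and the rule used no measured value.

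Tight junctions seal the space between neighbouring epithelial cells near the lumen. Claudins form the strands of the seal, and each claudin either closes the gap or lines a small channel for ions and water. The scaffold proteins tie the strands to the actin belt, and the PAR and Crumbs polarity complexes set where along the cell the junction forms. Gap junctions are built from connexins, which join the cytoplasm of touching cells through channels. Ducts of the pancreas are polarised epithelia with both kinds of junction, whereas endocrine cells leave the duct wall and settle in islets.

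The organoids came from C57BL/6 mice and carried lentiviral vectors from which a tetracycline-controlled promoter, not the Ngn3 locus, expressed the transgene with GFP. At 2 days of induction there were 3 groups: GFP only, GFP with wild-type Ngn3 (WT Ngn3), and GFP with 6S-A Ngn3, in which 6 serine-proline sites were changed to alanine-proline and so could not be phosphorylated. At 8 days there were 4 groups: WT Ngn3 cells, 6S-A Ngn3 cells, and no-color cells sorted from the WT and from the 6S-A organoids, which served together as the control, so the controls of the 2 days differ in kind. Each group held 3 biological replicates, each replicate was the sum of 1 to 6 pools of 50 sorted cells, and replicate 3 at 8 days came from passage 5 where all others came from passage 2.

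Of 77 libraries, 76 met the study's limits on depth, detected genes and spike-in share. Replicates held 17757303 to 26627347 reads on genes at 2 days and 2397470 to 17919627 at 8 days. Neurog3, which encodes Ngn3, stood at 0.0726, 0.0382 and 0.0461 CPM (reads per 1000000 on genes, scaled over all 21 replicates) in GFP-only cells, at 205, 89.5 and 105 CPM with WT Ngn3 and at 198, 117 and 99.9 CPM with 6S-A Ngn3. At 8 days it stood at 6.90, 46.4 and 14.3 CPM with WT Ngn3 and 9.87, 12.8 and 15.4 CPM with 6S-A Ngn3, against 0.992 CPM at most in no-color cells. All 10 ductal epithelial markers were present in every group, with summed levels of 16987 to 18843 CPM in GFP-only cells, 10598 to 11324 CPM in WT Ngn3 cells and 8836 to 9554 CPM in 6S-A Ngn3 cells at 2 days. The 10 endocrine markers summed to 7.97 to 11.2 CPM in GFP-only cells and to at least 293 CPM in every Ngn3 replicate at 2 days. At 8 days replicates stood further apart, with endocrine markers summing to 8.76 to 23.2 CPM in no-color cells, 52.1 to 2057 CPM with WT Ngn3 and 252 to 2703 CPM with 6S-A Ngn3, and ductal markers to 16825 to 40743, 14140 to 16625 and 10201 to 25512 CPM in the same order. Lists of 10 acinar, mesenchymal, endothelial and immune markers each summed to at most 23.0 CPM in any replicate, and Cpa1, Cpb1, Pnlip and Ptf1a among the acinar markers and Col3a1, Thy1 and Dpt among the mesenchymal ones had no read in any group.

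In GFP-only ductal cells 4 members stood far above the rest by level per kilobase of exon. Cldn3, a sealing claudin, was at 434 ± 38.6 CPM per kilobase (mean ± SD, n = 3), Cldn2, which forms a cation and water channel, at 292 ± 5.17, Cldn7 at 246 ± 16.6 and the adhesion molecule F11r at 203 ± 20.03. Each of these 4 differed from its neighbour in that order by more than either SD. Cldn6, which is known from embryonic epithelia, followed at 64.04 ± 36.6 and Crb3 at 35.7 ± 2.90, which lay within the SD of Cldn6. The scaffolds ranged from 16.4 ± 0.805 for Tjp3 to 21.7 ± 2.19 for Cgnl1. At the other end, 7 members had no read in any library (Cldn14, Cldn16 and 5 genes of the multicopy Cldn34 family, where the assignment of reads between copies was not tested), and Cldn5, the claudin of endothelial cells, had 4 reads in all. In total 44 of the 65 members had enough reads for testing at 2 days and 37 at 8 days. The 21 not tested at 2 days stayed at or below 1.14 CPM (Gjb6) in every replicate of that day, and the 28 not tested at 8 days at or below 1.74 CPM (Cldn19).

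**Figure D1:**
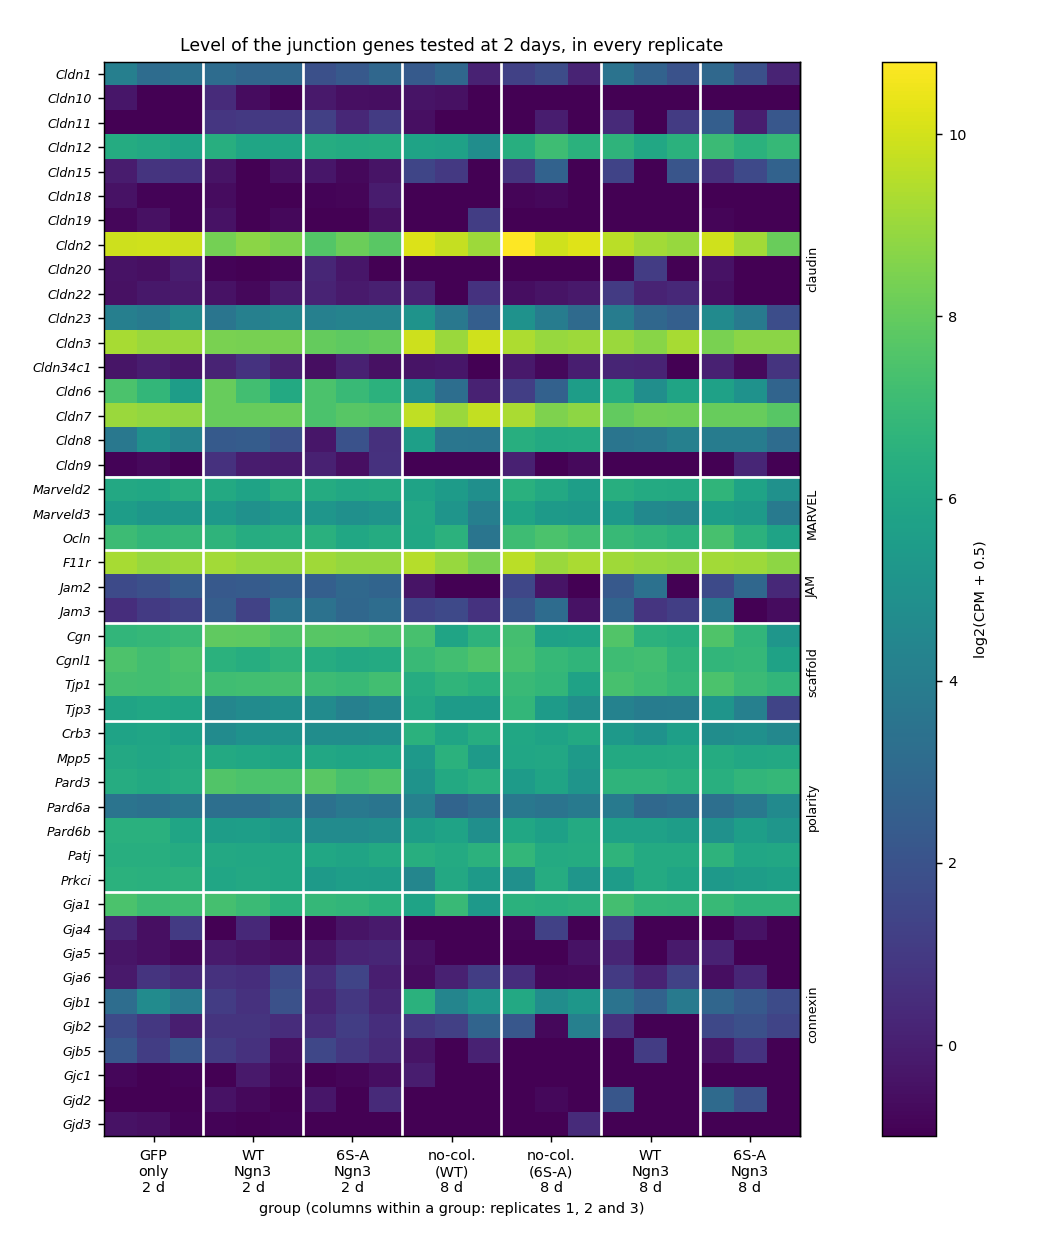
Heat map of the 44 junction genes tested at 2 days (rows, by class) in the 21 replicates (columns, 3 per group), with color giving log2(CPM + 0.5). Cldn2, Cldn3, Cldn7 and F11r are bright in every group, Cldn2, Cldn3 and Cldn7 darken in the Ngn3 groups at 2 days, and Pard3 and Cgn brighten there.

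After 2 days of WT Ngn3 more junction genes had fallen than had risen, and most of those that fell are abundant in ductal cells. Of the 44 members tested, 10 were lower and 5 were higher than in GFP-only cells by the quasi-likelihood test of edgeR, with p-values adjusted by Benjamini-Hochberg (threshold 0.05), which is 34.1% of the members, against 11.8% of all 23844 genes tested. The 10 that fell were the claudins Cldn2, Cldn3, Cldn7 and Cldn8, the connexin Gjb1, the scaffolds Cgnl1 and Tjp3, and the polarity genes Crb3, Pard6b and Prkci. The 5 that rose were Cldn9, Cldn11, Jam3, Pard3 and Cgn. By direction, 5.23% of all genes tested were lower and 6.56% higher. The replicates lay wholly below the control for 16 members and wholly above it for 6, where 13% of all genes did the first and 13.2% the second. The median log2 fold change was -0.19 over the 44 members and 0.01 over all genes tested. The median over the members stayed below 0 under each alternative but depended on single replicates, at -0.37 and -0.10 when replicate 1 or replicate 2 of the WT group was left out and -0.11 when GFP-only replicate 1 was.

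With 6S-A Ngn3, 12 members were lower and 6 higher, which is 40.9% of the 44, against 18.1% of all genes tested (8.62% lower, 9.43% higher). The replicates lay wholly below the control for 17 members and wholly above it for 7, against 15.9% and 16.9% of all genes. The 12 that fell were Cldn1, Cldn2, Cldn3, Cldn7, Cldn8, Gjb1, Cgnl1, Tjp3, Crb3, Pard6b, Prkci and Ocln, and the 6 that rose were Cldn9, Cldn11, Jam3, Pard3, Cgn and Gjd2. The median log2 fold change was -0.17 over the members and 0.02 over all genes, and over the members it was -0.26 without 6S-A replicate 3, -0.30 with the stricter filter of edgeR, -0.09 without a filter on low counts and -0.31 with the first technical repeat only. Both comparisons used the same GFP-only replicates, so their values are given side by side and are not independent of each other. Levels here are averages over sorted cells, and fewer cells of a type and less RNA per cell cannot be told apart.

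The calls were split by level. Among members with a mean of at least 10 CPM in the replicates compared, WT Ngn3 left 9 lower and 2 higher of 23, where 9.97% and 8.46% of all 9841 genes at that level were lower and higher. With 6S-A Ngn3 10 were lower and 2 higher of 23, against 15% and 12.8% of all 9897 genes at that level. Among the 21 members below 10 CPM, 1 was lower and 3 were higher with WT Ngn3 (1.9% and 5.21% of all genes below it), and 2 were lower and 4 higher with 6S-A Ngn3 (4.1% and 7.07%). The higher ones include Cldn11 and, with 6S-A Ngn3, Gjd2, which had no read in GFP-only cells and could only be called higher. Summed over the 32 claudins, the level was 2228 ± 137 CPM in GFP-only cells (mean ± SD, n = 3), 1228 ± 91.8 CPM with WT Ngn3 and 907 ± 45.6 CPM with 6S-A Ngn3. The 16 connexins summed to 174 ± 14.5, 134 ± 33.4 and 112 ± 12.5 CPM in the same order. The 7 polarity genes, in which Pard3 rose while others fell, summed to 463 ± 17.9, 462 ± 14.5 and 429 ± 29.5 CPM.

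Among the claudins reported here, Cldn2 (chromosome X, 139800828 to 139811386, plus strand, mm10) held the most reads over all libraries together, though not in every group. It stood at 958, 991 and 966 CPM in the 3 GFP-only replicates, at 321, 424 and 358 CPM with WT Ngn3 and at 196, 279 and 217 CPM with 6S-A Ngn3. Both Ngn3 groups lay wholly below the GFP-only group, and the 6S-A group lay wholly below the WT group. The log2 fold change against GFP only was -1.40 (SE 0.14, adjusted p = 1.61e-05) with WT Ngn3 and -2.08 (SE 0.14, adjusted p = 3.51e-07) with 6S-A Ngn3. Cldn3 stood at 602, 513 and 524 CPM in GFP-only cells, 342, 327 and 327 CPM with WT Ngn3 and 255, 235 and 255 CPM with 6S-A Ngn3. Cldn7, which is found along the lateral membrane as well as in the junction, stood at 517, 465 and 458 CPM in GFP-only cells, 262, 265 and 273 CPM with WT Ngn3 and 175, 211 and 191 CPM with 6S-A Ngn3. For both genes the 3 groups were stacked without overlap, GFP only highest and 6S-A lowest. Cldn3 changed by -0.72 (SE 0.10, adjusted p = 3.53e-04) on the log2 scale with WT Ngn3 and by -1.15 (SE 0.10, adjusted p = 4.09e-06) with 6S-A Ngn3. Cldn7 changed by -0.84 (SE 0.10, adjusted p = 1.09e-04) and -1.33 (SE 0.11, adjusted p = 1.42e-06), respectively.

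Cldn8, a sealing claudin of tight epithelia, fell further from a lower level. It stood at 12.8, 29.5 and 18.8 CPM in GFP-only cells, 4.63, 4.97 and 3.25 CPM with WT Ngn3 and 0.320, 3.38 and 1.06 CPM with 6S-A Ngn3, so neither Ngn3 group overlapped the control. Its log2 fold change was -2.25 (SE 0.57, adjusted p = 0.0251) with WT Ngn3 and -3.71 (SE 0.62, adjusted p = 0.0015) with 6S-A Ngn3. The WT call was lost when any of 5 replicates was left out: GFP-only replicate 2 (adjusted p = 0.0947) or 3 (0.0584), or WT Ngn3 replicate 1 (0.0862), 2 (0.0701) or 3 (0.11), with log2 fold changes from -2.36 to -1.90. Cldn1, a barrier claudin, stood at 16.6, 8.49 and 9.59 CPM in GFP-only cells, 8.46, 7.01 and 7.23 CPM with WT Ngn3 and 3.20, 4.47 and 7.10 CPM with 6S-A Ngn3. Both Ngn3 groups lay wholly below the GFP-only replicates, the WT group only just. The WT log2 fold change of -0.61 (SE 0.32, adjusted p = 0.28) did not pass, where the 6S-A log2 fold change of -1.23 (SE 0.32, adjusted p = 0.0149) did. The 6S-A call did not hold without GFP-only replicate 1 (-0.89, adjusted p = 0.0855), 6S-A replicate 1 (-1.0, adjusted p = 0.0657) or 6S-A replicate 2 (-1.16, adjusted p = 0.0583).

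Other claudins at 10 CPM or more did not pass. Cldn12, which lacks the usual tail that binds scaffolds, stood at 76.8, 68.8 and 57.2 CPM in GFP-only cells, 83.5, 60.8 and 60.7 with WT Ngn3 and 77.5, 72.7 and 75.3 with 6S-A Ngn3, with overlapping groups and log2 fold changes of 0.02 (SE 0.15, adjusted p = 0.96) and 0.15 (SE 0.14, adjusted p = 0.58). Cldn6 stood at 173, 111 and 46.9 CPM in GFP-only cells, 261, 150.3 and 71.5 CPM with WT Ngn3 and 174, 128 and 93.8 CPM with 6S-A Ngn3, a spread within groups that covered the differences between them (log2 fold changes 0.56 and 0.26). Cldn23 was at 17.6 ± 4.34 CPM in GFP-only cells with log2 fold changes of -0.10 and 0.06, and it was not past the threshold. Cldn15, a channel claudin at 0.937 ± 0.436 CPM in GFP-only cells, had log2 fold changes of -2.48 (SE 0.88, adjusted p = 0.0939) with WT Ngn3 and -1.99 (SE 0.85, adjusted p = 0.14) with 6S-A Ngn3, neither group overlapping the control but both short of the threshold. The remaining tested claudins (Cldn10, Cldn18, Cldn19, Cldn20, Cldn22 and Cldn34c1) stayed at or below 1.15 CPM in every replicate at 2 days and were not past the threshold.

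**Figure D2:**
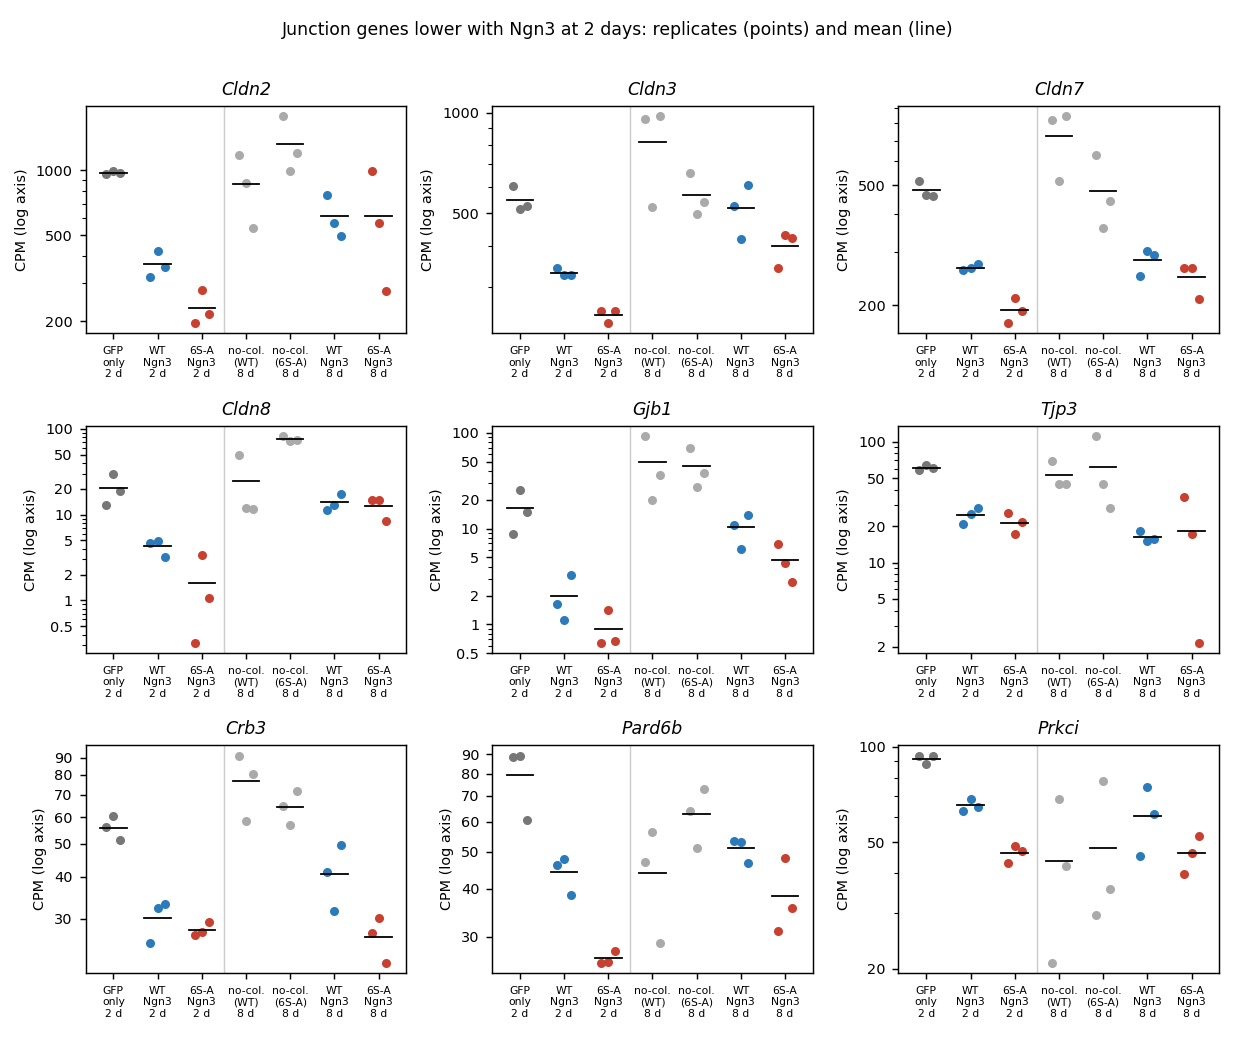
CPM (log axis) of 9 junction genes that fell at 2 days, in each of the 3 replicates of the 7 groups (points), with the group mean (line). At 2 days the WT Ngn3 and 6S-A Ngn3 replicates lie below the GFP-only replicates for every gene shown. At 8 days the groups are wider, with Gjb1, Cldn7 and Crb3 of both forms still below the no-color replicates, and also Tjp3 of WT Ngn3 and Cldn3 of 6S-A Ngn3.

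Of the 3 MARVEL proteins, 1 passed the threshold, with 6S-A Ngn3. Ocln, which encodes occludin, stood at 135, 111 and 114 CPM in GFP-only cells, 100.5, 78.5 and 84.9 CPM with WT Ngn3 and 89.5, 64.2 and 75.2 CPM with 6S-A Ngn3. Both Ngn3 groups lay below the control without overlap, and the log2 fold change of -0.66 (SE 0.15, adjusted p = 0.0053) passed for 6S-A Ngn3 while that of -0.44 (SE 0.14, adjusted p = 0.0661) for WT Ngn3 did not. Marveld2, which encodes tricellulin at the corners where 3 cells meet, had log2 fold changes of -0.01 and 0.00 (rounded) from 71.2 ± 7.71 CPM in GFP-only cells. Marveld3 had log2 fold changes of -0.15 and -0.28 from 40.5 ± 5.09 CPM, and F11r of -0.05 and -0.10 from 542 ± 53.3 CPM. None of these 3 passed the threshold, with adjusted p-values of at least 0.23. For F11r the 95% interval of the log2 fold change was -0.27 to 0.17 with WT Ngn3 and -0.32 to 0.12 with 6S-A Ngn3.

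The scaffolds divided by member. Tjp3, one of the zonula occludens proteins, stood at 57.9, 63.9 and 61.1 CPM in GFP-only cells, 20.95, 25.1 and 28.4 CPM with WT Ngn3 and 25.5, 17.3 and 21.5 CPM with 6S-A Ngn3. Cgnl1, which encodes paracingulin, stood at 183, 151 and 178 CPM in GFP-only cells, 91.8, 81.3 and 103 CPM with WT Ngn3 and 78.3, 68.3 and 73.4 CPM with 6S-A Ngn3. Both genes lay wholly below the control in both Ngn3 groups. With WT Ngn3 the log2 fold changes were -1.29 (SE 0.16, adjusted p = 1.25e-04) for Tjp3 and -0.89 (SE 0.13, adjusted p = 3.04e-04) for Cgnl1. With 6S-A Ngn3 they were -1.51 (SE 0.16, adjusted p = 1.89e-05) and -1.22 (SE 0.13, adjusted p = 1.26e-05).

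Tjp1, the founding member of the zonula occludens proteins, was at 153, 148 and 163 CPM in GFP-only cells, 142, 151 and 155 CPM with WT Ngn3 and 137, 127 and 149 CPM with 6S-A Ngn3, and its log2 fold changes of -0.05 (SE 0.11, adjusted p = 0.87) and -0.18 (SE 0.11, adjusted p = 0.32) did not pass. Cgn, which encodes cingulin, the relative of paracingulin, went up. It stood at 109.7, 114 and 129 CPM in GFP-only cells, 239, 231 and 188 CPM with WT Ngn3 and 209, 207 and 178 CPM with 6S-A Ngn3. Every Ngn3 replicate was above every GFP-only replicate, and the log2 fold change was 0.90 (SE 0.12, adjusted p = 2.43e-04) with WT Ngn3 and 0.75 (SE 0.12, adjusted p = 7.01e-04) with 6S-A Ngn3.

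Polarity genes also went both ways. Pard3, the scaffold of the PAR complex, rose from 78.7, 72.1 and 78.9 CPM in GFP-only cells to 193, 173 and 175 CPM with WT Ngn3 and 219, 164 and 187 CPM with 6S-A Ngn3, a log2 fold change of 1.24 (SE 0.12, adjusted p = 1.77e-05) and 1.30 (SE 0.12, adjusted p = 6.35e-06). Its partners Pard6b and Prkci fell. Pard6b stood at 88.7, 89.2 and 60.4 CPM in GFP-only cells, 46.1, 48.00 and 38.5 CPM with WT Ngn3 and 25.6, 25.7 and 27.5 CPM with 6S-A Ngn3. Prkci, the atypical protein kinase C of the complex, stood at 93.5, 88.1 and 93.8 CPM in GFP-only cells, 62.7, 68.7 and 64.7 CPM with WT Ngn3 and 42.9, 48.6 and 46.9 CPM with 6S-A Ngn3. For both genes the groups were stacked without overlap from GFP only down to 6S-A Ngn3. The log2 fold change of Pard6b was -0.84 (SE 0.15, adjusted p = 0.00198) with WT Ngn3 and -1.60 (SE 0.15, adjusted p = 7.05e-06) with 6S-A Ngn3, and that of Prkci was -0.49 (SE 0.11, adjusted p = 0.00797) and -1.0 (SE 0.11, adjusted p = 1.78e-05). Pard6a, a relative of Pard6b, was at 11.02 ± 0.804 CPM in GFP-only cells and did not pass in either comparison (log2 fold changes -0.09 and 0.05).

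In the Crumbs complex, Crb3, the apical transmembrane protein, stood at 56.00, 60.3 and 51.2 CPM in GFP-only cells, 25.4, 32.3 and 33.1 CPM with WT Ngn3 and 26.8, 27.4 and 29.3 CPM with 6S-A Ngn3. Neither Ngn3 group overlapped the control, with log2 fold changes of -0.88 (SE 0.14, adjusted p = 6.02e-04) and -1.01 (SE 0.14, adjusted p = 1.22e-04). Its intracellular partners Mpp5 and Patj were at 67.1 ± 5.06 and 80.9 ± 4.27 CPM in GFP-only cells. Mpp5 had log2 fold changes of -0.05 and -0.10, and Patj of -0.27 (SE 0.11, adjusted p = 0.16) with WT Ngn3 and -0.33 (SE 0.11, adjusted p = 0.0537) with 6S-A Ngn3, neither past the threshold.

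**Figure D3:**
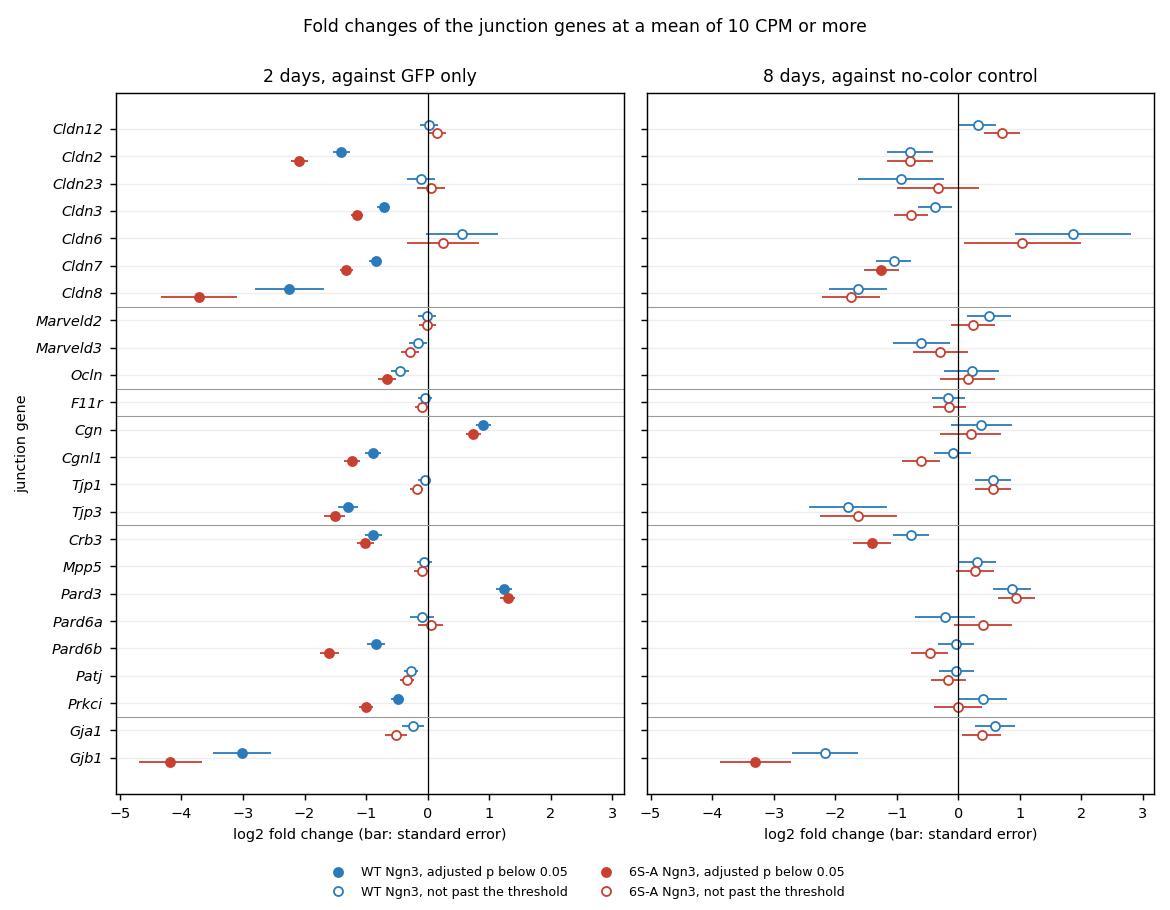
Log2 fold change (point) with its standard error (bar) for the 24 junction genes with a mean of at least 10 CPM over all replicates, at 2 days against GFP only (left) and at 8 days against no-color cells (right), with filled points past an adjusted p of 0.05. The 2-day points of Cldn2, Cldn3, Cldn7, Cldn8 and Gjb1 lie left of 0 with 6S-A Ngn3 further left than WT Ngn3, and the 8-day bars are longer, with 3 filled points (Cldn7, Crb3 and Gjb1, all 6S-A Ngn3).

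Among the connexins, Gjb1 fell with either form of Ngn3. Gjb1 (chromosome X, 101376378 to 101385629, plus strand), a connexin of liver and exocrine pancreas, stood at 8.67, 25.3 and 14.7 CPM in GFP-only cells, 1.62, 1.10 and 3.25 CPM with WT Ngn3 and 0.641, 1.40 and 0.665 CPM with 6S-A Ngn3, so the highest Ngn3 replicate was below the lowest control. Its log2 fold change was -3.02 (SE 0.47, adjusted p = 8.29e-04) with WT Ngn3 and -4.18 (SE 0.51, adjusted p = 6.84e-05) with 6S-A Ngn3. Gjb5 stood at 4.14, 1.72 and 3.87 CPM in GFP-only cells, 1.54, 1.10 and 0.197 CPM with WT Ngn3 and 2.33, 1.40 and 0.843 CPM with 6S-A Ngn3, with log2 fold changes of -1.76 (SE 0.61, adjusted p = 0.0856) and -1.09 (SE 0.59, adjusted p = 0.25) that did not pass.

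Gja1, the widespread connexin of many tissues, was at 173, 136 and 141 CPM in GFP-only cells, 158, 133 and 90.9 CPM with WT Ngn3 and 115, 108 and 92.7 CPM with 6S-A Ngn3. It did not pass with WT Ngn3 (log2 fold change -0.23, SE 0.17, adjusted p = 0.50), and with 6S-A Ngn3 the groups did not overlap but the test stayed short of the threshold (log2 fold change -0.52, SE 0.17, adjusted p = 0.0572). The remaining tested connexins (Gja4, Gja5, Gja6, Gjb2, Gjc1 and Gjd3) were at or below 2.65 CPM in every replicate at 2 days and did not pass.

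The members that rose, other than Pard3 and Cgn, started at or near 0. Cldn11 and Gjd2 had no read in any GFP-only pool, so they met the filter on detected libraries through Ngn3 pools alone. A gene that enters in this way can only be called higher, so its call and p-value partly follow from the filter. Cldn9 had a read in 2 of 18 GFP-only pools, 9 of 18 WT Ngn3 pools and 10 of 18 6S-A Ngn3 pools. Cldn11, the claudin of myelin and of the testis barrier, had 0 of the 72379165 reads of the GFP-only replicates, which allows a level of up to 0.0398 CPM at 3 reads over the group. With WT Ngn3 it stood at 1.34, 1.46 and 1.43 CPM and with 6S-A Ngn3 at 1.88, 0.728 and 1.55 CPM, from 91 and 90 reads. By the mean of the replicates over that limit, the level was at least 35.5-fold higher with WT Ngn3 (adjusted p = 1.88e-04) and at least 34.8-fold higher with 6S-A Ngn3 (adjusted p = 1.10e-04), and every Ngn3 replicate was above the control.

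Gjd2, the connexin of neurons and of islet beta cells, had no read in GFP-only cells either. It stood at 0.237, 0.105 and 0 CPM with WT Ngn3 and 0.320, 0 and 0.843 CPM with 6S-A Ngn3, from 8 and 26 reads. By the same measure the 6S-A level was at least 9.74-fold higher (adjusted p = 0.0499), but 6S-A replicate 2 was at 0 like the control, and the WT level did not pass (adjusted p = 0.21). The call was lost on leaving out any replicate but 6S-A replicate 2: without GFP-only replicate 1, 2 or 3 the adjusted p was 0.11, 0.12 or 0.10, and without 6S-A replicate 1 or 3 it was 0.08 or 0.16. It was also lost with the replicate number as a block and with the first technical repeat only. Exons of Gjd2 share 75 bases with A530058N18Rik on the other strand, and the library kit kept no strand.

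The 250 bases before the annotated start of Cldn11 and Gjd2 are shown because both genes went from no read in the control to reads with Ngn3, a basic helix-loop-helix factor that binds E-boxes (CANNTG, a palindrome as searched, so 1 strand covers both). They are from RefSeq on GRCm38.p6, read 5′ to 3′ on the strand of the gene, with E-boxes in capitals, and they lie at chr3:31149670-31149919 (plus strand) for Cldn11 and at chr2:114013620-114013869 (minus strand) for Gjd2.
Cldn11: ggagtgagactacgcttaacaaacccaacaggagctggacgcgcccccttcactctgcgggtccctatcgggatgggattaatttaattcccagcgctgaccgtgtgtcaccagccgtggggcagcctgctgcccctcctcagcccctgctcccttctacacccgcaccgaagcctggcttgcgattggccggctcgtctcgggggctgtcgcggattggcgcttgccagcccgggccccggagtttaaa
Gjd2: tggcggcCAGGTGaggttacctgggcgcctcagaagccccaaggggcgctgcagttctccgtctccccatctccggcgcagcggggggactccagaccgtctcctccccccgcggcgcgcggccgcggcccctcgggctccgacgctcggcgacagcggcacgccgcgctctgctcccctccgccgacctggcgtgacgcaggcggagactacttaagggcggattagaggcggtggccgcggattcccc
The Cldn11 window held no E-box and the Gjd2 window held 1, CAGGTG, starting 243 bases before the start site. Windows of the same length were found for 49 of the 65 members, and 33 of them (67.3%) held CANNTG, as did 69.3% of the 27025 genes with a window. Among the members that fell, 9 of 11 with a window held it, and among those that rose, 3 of 4 (Cgn, Gjd2 and Pard3). The form CAGATG, searched on both strands, was in the windows of Cgnl1 and Cldn1 alone among the members past the threshold, and in those of 16.3% of all genes, and the form CAGCTG in that of Cldn2 alone and in 14.7% of all genes. Both forms also count as CANNTG. A match is a stretch of letters and not a measured binding site.

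Cldn9 and Jam3 rose from low levels. Cldn9 stood at 0.0363, 0.115 and 0 CPM in GFP-only cells, 1.11, 0.418 and 0.393 CPM with WT Ngn3 and 0.549, 0.208 and 1.11 CPM with 6S-A Ngn3, from 4, 44 and 41 reads, with log2 fold changes of 3.50 (SE 0.99, adjusted p = 0.0336) and 3.45 (SE 0.99, adjusted p = 0.026). The WT call was lost without WT Ngn3 replicate 1 (2.83, adjusted p = 0.14), GFP-only replicate 1 (3.29, adjusted p = 0.11) or GFP-only replicate 3 (3.01, adjusted p = 0.0927). The 6S-A call was lost without 6S-A replicate 3 (2.74, adjusted p = 0.12) or GFP-only replicate 1 (3.23, adjusted p = 0.0872) or 3 (2.96, adjusted p = 0.0754). Cldn9 lies 137 bases from the end of Cldn6 on chromosome 17, on the other strand, and its reads were 0.0461%, 0.402% and 0.49% of those of Cldn6 in the 3 groups. Cldn6 itself was not past the threshold, and whether reads running past its end reach Cldn9 was not tested.

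Jam3, an adhesion molecule of tight junctions and of leukocyte traffic, stood at 0.944, 1.53 and 1.94 CPM in GFP-only cells, 5.10, 1.99 and 10.7 CPM with WT Ngn3 and 10.5, 7.07 and 8.82 CPM with 6S-A Ngn3. Neither Ngn3 group overlapped the control, although the lowest WT replicate lay just above it, and the WT and 6S-A groups overlapped each other. The log2 fold change was 2.02 (SE 0.50, adjusted p = 0.0182) with WT Ngn3 and 2.58 (SE 0.51, adjusted p = 0.00269) with 6S-A Ngn3. The WT call was lost without WT Ngn3 replicate 3 (1.29, adjusted p = 0.078), GFP-only replicate 1 (1.77, adjusted p = 0.0772) or GFP-only replicate 2 (2.04, adjusted p = 0.0678). Exons of Jam3 share 1159 of their 3200 bases with Gm48796 on the other strand, and reads within the shared part cannot be told apart. Jam2 stood at 2.61, 3.14 and 4.98 CPM in GFP-only cells, 4.39, 4.81 and 5.66 CPM with WT Ngn3 and 5.40, 7.44 and 6.52 CPM with 6S-A Ngn3, with log2 fold changes of 0.47 (SE 0.30, adjusted p = 0.41) and 0.84 (SE 0.30, adjusted p = 0.069) that did not pass.

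**Figure D4:**
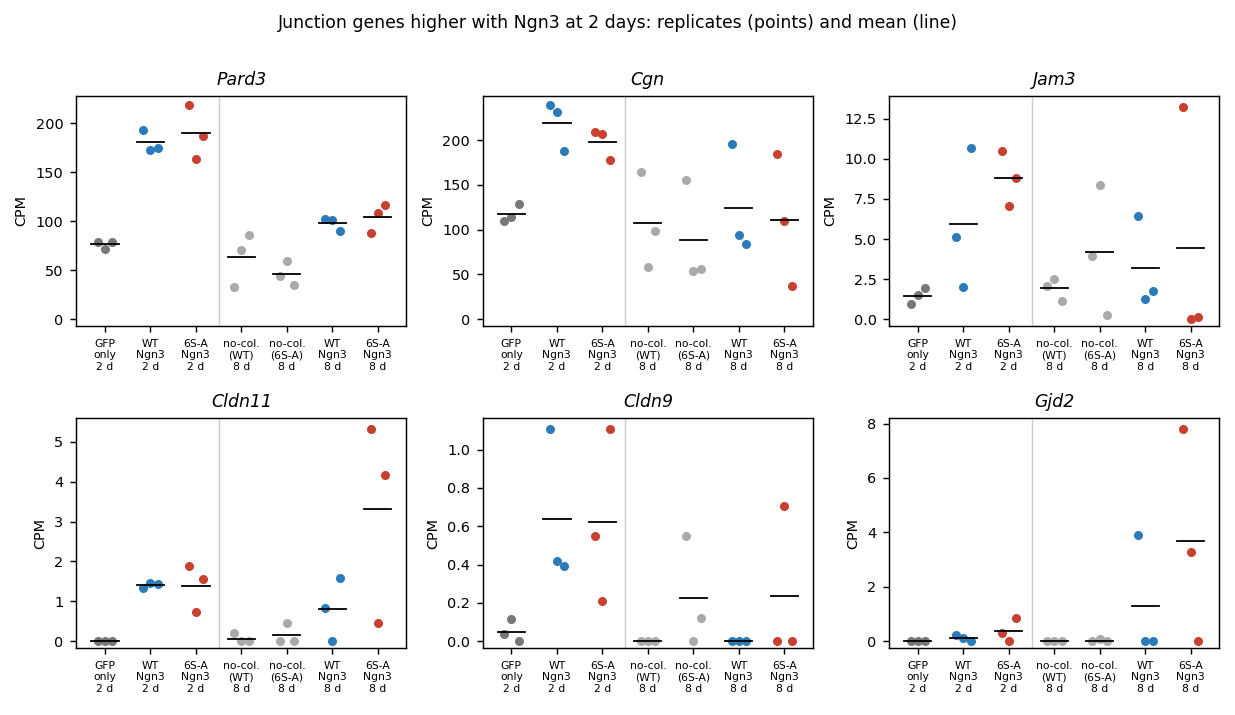
CPM (linear axes from 0) of the 6 junction genes that rose at 2 days with at least one form of Ngn3, in each replicate of the 7 groups (points), with the group mean (line). Pard3 and Cgn start from 72.1 CPM or more in GFP-only cells, whereas Cldn11 and Gjd2 are at 0 there, and the 8-day points of Jam3, Cldn11 and Gjd2 scatter widely within groups.

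Single pools of 50 cells share their replicate and were not tested, but they show the spread behind each sum. Pool values are CPM scaled by library size alone. Cldn2 had a lowest, median and highest pool of 764, 992 and 1207 CPM among the 18 GFP-only pools, 246, 383 and 627 CPM among the 18 WT Ngn3 pools and 149, 237 and 388 CPM among the 18 6S-A Ngn3 pools, so every Ngn3 pool was below every GFP-only pool. For Cldn3 and Cldn7 this held in 17 of 18 WT pools and 18 of 18 6S-A pools, for Gjb1 in 13 and 17, and for Cldn8 in 6 and 12, although all 18 pools of either Ngn3 form were below the GFP-only median of Gjb1 and Cldn8. In the other direction, Pard3 was above every GFP-only pool in 18 of 18 pools of both Ngn3 groups and Cgn in 17 of 18 of each. Reads of Cldn11 were found in 0 of 18 GFP-only pools, 11 of 18 WT Ngn3 pools and 11 of 18 6S-A Ngn3 pools, and reads of Gjd2 in 0, 3 and 6.

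**Figure D5:**
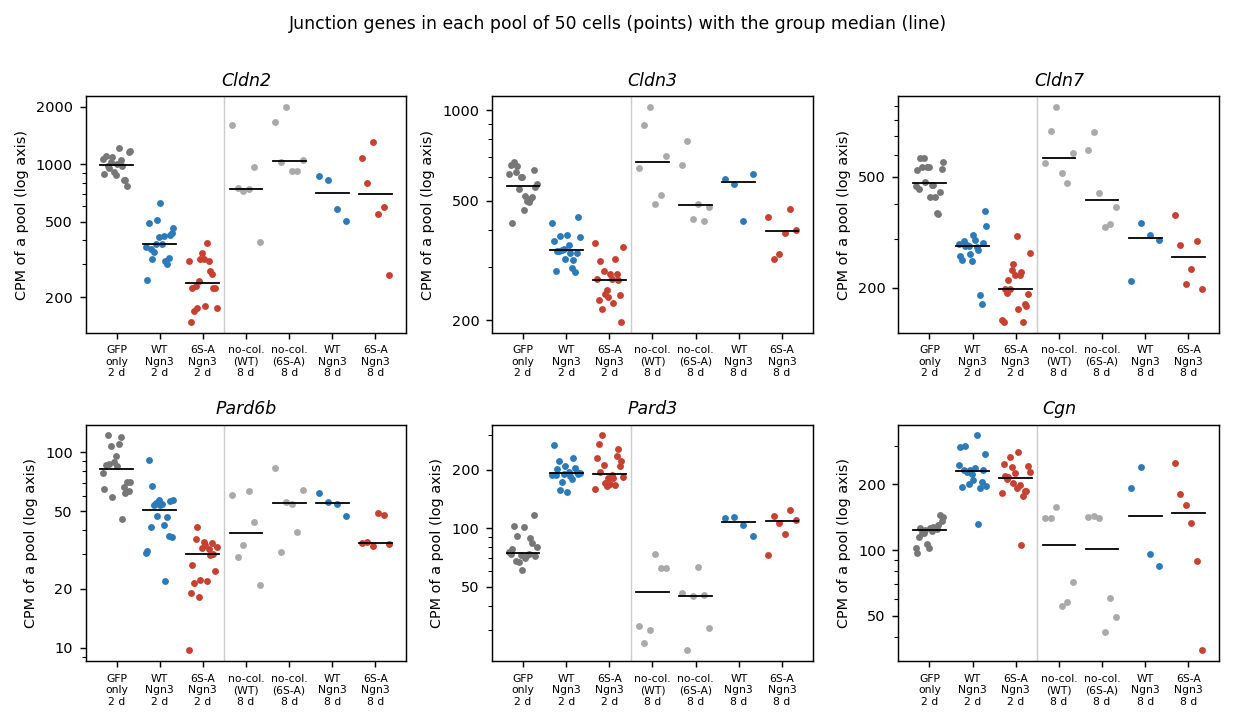
CPM of 6 junction genes in each of the 76 pools of 50 cells (points, log axes, scaled by library size) with the median of each group (line). At 2 days all WT Ngn3 and 6S-A Ngn3 pools of Cldn2 lie below the GFP-only pools and all of Pard3 lie above them.

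The 6S-A and WT forms of Ngn3 were compared directly at 2 days, without the control, and 0 of the 44 members passed the threshold, against 0.0126% of all genes (3 of 23844). At an unadjusted p below 0.05 there were 9 members, 8 lower and 1 higher with 6S-A Ngn3, which is 20.5% of the 44 against 5.79% of all genes, and DESeq2's Wald test called 5, all lower, and 0.424% of all genes. The 8 were Cldn2, Cldn3, Cldn7, Cldn8, Gjb1, Pard6b, Prkci and Cgnl1, and the other was Cldn20, from 2 reads with WT Ngn3 (ratio 10.7, counting interval 2.61 to 94.03). The log2 difference was -0.68 (95% interval -0.95 to -0.42) for Cldn2, -0.48 (95% interval -0.69 to -0.28) for Cldn7 and -0.43 (95% interval -0.63 to -0.23) for Cldn3. It was -0.76 (95% interval -1.06 to -0.46) for Pard6b and -0.51 (95% interval -0.72 to -0.30) for Prkci, with an adjusted p of 0.20 for both genes. Over the 44 members, 6 had 6S-A replicates wholly below the WT replicates and 1 wholly above, where 5.23% and 5.42% of all genes did so. These intervals are not adjusted for the number of genes. Among the genes that rose, the log2 difference was 0.06 (95% interval -0.18 to 0.30) for Pard3, -0.16 (95% interval -0.40 to 0.08) for Cgn and 0.56 (95% interval -0.35 to 1.47) for Jam3, each interval spanning 0.

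At 8 days fewer members were tested, fewer passed and the errors were wider. The wide range of summed endocrine and ductal markers among the 8-day replicates, given above, stands beside every result of that day, and its part in them was not tested. The median standard error over the members tested was 0.49 for the WT form and 0.47 for the 6S-A form, where it was 0.31 for both at 2 days. With WT Ngn3, 0 of the 37 members tested passed against no-color cells, where 0.914% of all 19696 genes did. At an unadjusted p below 0.05 there were 9 (3 higher and 6 lower), 24.3% of the 37 against 10.5% of all genes, and DESeq2's Wald test called 3, all lower, and 2.8% of all genes. With 6S-A Ngn3, 3 members were lower and 0 higher, 8.11% of the 37 against 1.71% of all genes (0.34% lower, 1.37% higher), and they were Gjb1, Cldn7 and Crb3. Replicates lay wholly below the 6 no-color replicates for 4 members with either form (2.23% and 2.18% of all genes), and wholly above them for 1 and 2 (3.01% and 3.6%). Those below were Gjb1, Cldn7 and Crb3 with both forms, Tjp3 with WT Ngn3 and Cldn3 with 6S-A Ngn3. The median log2 fold change was 0.31 over the 37 members with WT Ngn3, where it was 0.01 over all genes, and 0.16 with 6S-A Ngn3, where it was 0.03. The sign of these medians rested on single replicates. Without replicate 1 of the Ngn3 group the median was -0.10 for the WT form and -0.34 for the 6S-A form, and for the 6S-A form it was also -0.03 without no-color (WT) replicate 3 and -0.10 against its own no-color group. Without replicate 3 of the no-color (WT) or the no-color (6S-A) group the WT median was 0.16, without replicate 3 of the no-color (6S-A) group the 6S-A median was 0.04, and without a filter on low counts both were 0.

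Gjb1 stood at 92.6, 19.9 and 36.4 CPM in no-color cells of WT organoids and 68.6, 27.1 and 37.8 CPM in those of 6S-A organoids. It stood at 10.9, 6.12 and 13.7 CPM in WT Ngn3 cells and 6.84, 4.35 and 2.78 CPM in 6S-A Ngn3 cells, below every no-color replicate. The log2 fold change was -3.30 (SE 0.58, adjusted p = 0.00557) with 6S-A Ngn3 and -2.17 (SE 0.54, adjusted p = 0.0749) with WT Ngn3. Cldn7 stood at 819, 516 and 845 CPM in no-color cells of WT organoids, 631, 359.8 and 443 CPM in those of 6S-A organoids, 251, 303 and 293 CPM in WT Ngn3 cells and 267, 266 and 209.9 CPM in 6S-A Ngn3 cells. Crb3 stood at 91.2, 58.6 and 80.4 CPM in no-color cells of WT organoids, 64.8, 56.9 and 71.6 CPM in those of 6S-A organoids, 41.2, 31.6 and 49.6 CPM in WT Ngn3 cells and 27.2, 30.1 and 22.2 CPM in 6S-A Ngn3 cells. Neither gene's Ngn3 groups overlapped the no-color groups. The log2 fold change of Cldn7 was -1.25 (SE 0.28, adjusted p = 0.0288) with 6S-A Ngn3 and -1.05 (SE 0.28, adjusted p = 0.0972) with WT Ngn3, and that of Crb3 was -1.40 (SE 0.30, adjusted p = 0.0213) and -0.77 (SE 0.29, adjusted p = 0.33).

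Replicate 3 was the passage 5 replicate in all 4 groups at 8 days. With the replicate number as a block, in a fit that called 2.4% of all genes, 2 members passed with WT Ngn3, Gjb1 (-2.03, adjusted p = 0.00841) and Cldn7 (-1.02, adjusted p = 0.0407). With 6S-A Ngn3 the same block left 6 past the threshold, and 3.57% of all genes, namely Gjb1, Cldn7, Crb3, Cldn8 (-1.69, adjusted p = 0.0262), Tjp3 (-1.87, adjusted p = 0.0372) and Gjd2, which was higher (adjusted p = 0.0292). With the passage alone as a term, chosen after seeing the data, 0 members passed for the WT form (1.53% of all genes) and 4 for the 6S-A form (2.26% of all genes), which were Gjb1, Cldn7, Crb3 and Gjd2 (adjusted p = 0.0426).

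The calls of Cldn7 and Crb3 did not hold without some replicates. Without any one of the 3 6S-A replicates, no-color (WT) replicate 1, or no-color (6S-A) replicate 1 or 3, the adjusted p of Cldn7 was 0.055 to 0.12. For Crb3 it was 0.0571 to 0.0845 without any one 6S-A replicate or no-color (6S-A) replicate 3, whereas the call of Gjb1 held without any single replicate. Against the no-color cells of their own organoids only, Cldn7 (-0.96, adjusted p = 0.26) and Crb3 (-1.29, adjusted p = 0.11) did not pass and Gjb1 (-3.24, adjusted p = 0.0214) did. With passage 2 cells only, none passed, and the adjusted p was 0.072 for Gjb1, 0.19 for Crb3 and 0.20 for Cldn7.

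Other members at 8 days are given as values. Cldn2 stood at 769.8, 571 and 496 CPM in WT Ngn3 cells and 992, 570.0 and 277 CPM in 6S-A Ngn3 cells against 1173, 870.0 and 542 CPM in no-color cells of WT organoids and 1777, 987 and 1198 CPM in those of 6S-A organoids, with overlap and log2 fold changes of -0.78 (SE 0.38, adjusted p = 0.49) and -0.79 (SE 0.38, adjusted p = 0.42). Pard3 stood at 103, 101 and 89.7 CPM in WT Ngn3 cells and 87.6, 109 and 117 CPM in 6S-A Ngn3 cells. Its no-color replicates lay below both groups, at 32.9, 70.9 and 86.2 CPM in WT organoids and 43.7, 59.6 and 34.9 CPM in 6S-A organoids, but its log2 fold changes of 0.87 (SE 0.31, adjusted p = 0.28) and 0.94 (SE 0.31, adjusted p = 0.16) did not pass. Gjd2 stood at 3.91, 0 and 0 CPM in WT Ngn3 cells and 7.81, 3.29 and 0 CPM in 6S-A Ngn3 cells, from 42 and 157 reads, against 1 read in all no-color replicates together. In each Ngn3 group at least 1 replicate had no read of Gjd2, and the adjusted p was 0.20 and 0.0699. Cldn11 stood at 0.839, 0 and 1.59 CPM in WT Ngn3 cells and 5.33, 0.470 and 4.17 CPM in 6S-A Ngn3 cells, against at most 0.451 CPM in no-color cells, with an adjusted p of 0.12 for 6S-A Ngn3. The other members with a mean above 50 CPM over the 8-day replicates (Cldn3, Cldn12, F11r, Marveld2, Ocln, Gja1, Cgn, Cgnl1, Tjp1, Mpp5 and Patj) had log2 fold changes from -0.78 (Cldn3, 6S-A Ngn3) to 0.72 (Cldn12, 6S-A Ngn3), none past the threshold.

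Between the 6S-A and WT forms at 8 days 0 of 37 members passed and 0% of all genes did. There 1 member, Cldn22, had an unadjusted p below 0.05 (2.7% against 2.11% of all genes), but all 995 of its exonic bases are shared with Wwc2 on the other strand, so its reads cannot be assigned. DESeq2's Wald test called 0. The no-color cells of 6S-A and WT organoids did not differ in any member past the threshold (0% of all genes passed), and 3 had an unadjusted p below 0.05 (Ocln, Cldn12 and Cldn8), 8.1% of the 37 against 8.37% of all genes. DESeq2's Wald test called 0 members and 0.193% of all genes there.

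Across time, 6S-A Ngn3 cells at 8 days had 1 member past the threshold against 6S-A Ngn3 cells at 2 days, of 37 tested, 2.7% against 0.562% of all 19589 genes. This was Cldn8, which stood at 0.320, 3.38 and 1.06 CPM at 2 days and 14.8, 14.9 and 8.50 CPM at 8 days, without overlap (log2 fold change 3.02, SE 0.63, adjusted p = 0.0298). The call was lost without 6S-A replicate 1 at 2 days (2.54, adjusted p = 0.16), replicate 3 at 2 days (2.81, adjusted p = 0.19) or replicate 1 at 8 days (2.90, adjusted p = 0.0517). WT Ngn3 cells had 0 members past the threshold between the days, where 0.168% of all genes passed, with 6 at an unadjusted p below 0.05 (16.2% against 8.71% of all genes) and 1 by DESeq2's Wald test (1.34% of all genes). In them Cldn8 stood at 11.4, 12.9 and 17.3 CPM at 8 days (log2 fold change 1.69, SE 0.60, adjusted p = 0.40) and Gjb1 at 10.9, 6.12 and 13.7 CPM (log2 fold change 2.38, SE 0.60, adjusted p = 0.15).

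Control cells had 1 member past the threshold between 2 and 8 days, 2.7% of 37 against 1.35% of all genes. Gjb5 stood at 4.14, 1.72 and 3.87 CPM in GFP-only cells, at 0.262, 0 and 0.578 CPM in no-color cells of WT organoids and at 0 in all 3 replicates of those of 6S-A organoids, a fitted log2 fold change of -6.28 (SE 1.37, adjusted p = 0.0275) from 243 and 5 reads. Since 1 of the 2 no-color groups had no read, the size of this fitted value depends on how the fit treats 0 reads and is not a measured fold. The call was lost without any one of the GFP-only replicates, no-color (WT) replicate 1, or no-color (6S-A) replicate 1 or 3, with adjusted p-values of 0.0535 to 0.14. More members passed under several other settings, as did a larger share of all genes, though not with the first technical repeat only. A term for passage, chosen after seeing the data, also called Cldn1 (-2.38 on the log2 scale), Jam2 (-4.40), Gja1 (-0.87) and Tjp1 (-0.73). Blocking on replicate number called these genes too, along with Cldn6 (-2.71), Prkci (-1.13) and Gjb1, which was higher (1.47). The kind of control and the day cannot be told apart here. The change of the Ngn3 effect from 2 to 8 days was tested in itself, and 0 of 37 members passed for WT Ngn3 (0% of all genes) and 0 for 6S-A Ngn3 (0.0102% of all genes), with 5 and 7 members at an unadjusted p below 0.05, where 5.23% and 5.64% of all genes were. DESeq2's Wald test called 0 members in both, and 0.301% and 0.311% of all genes. For Cldn2 with 6S-A Ngn3 that change was 1.28 with a 95% interval of 0.38 to 2.17 on the log2 scale, and for Pard6b 1.13 with a 95% interval of 0.46 to 1.80, with adjusted p-values of 0.68 and 0.56.

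Other genes of the same pathways were followed in 3 lists, to be read against the shares of all genes at 2 days, of which 6.56% were higher and 5.23% lower with the WT form, and 9.43% and 8.62% with the 6S-A form. Of 11 tricellular and other transmembrane proteins, 10 were tested at 2 days, and 1 was lower with WT Ngn3 (Cxadr, -0.39 on the log2 scale). With 6S-A Ngn3 4 were lower (Cxadr at -0.57, Igsf5 at -0.42, and the tricellular proteins Ildr1 at -0.67 and Ildr2 at -3.38) and 1 was higher (Panx1, a pannexin channel, 0.72). Of 24 other scaffold and polarity genes, 3 were higher and 4 lower with WT Ngn3, and 4 were higher and 4 lower with 6S-A Ngn3. Amotl1, Pard6g and Afdn were higher in both, with WT and 6S-A log2 fold changes of 1.08 and 1.07, 0.71 and 0.78, and 0.51 and 0.45, and Dlg3 (0.83) with 6S-A Ngn3. Amot (-1.44 and -1.89), Ptpn13 (-1.17 and -1.68), Magi1 (-0.64 and -0.62) and Llgl2 (-0.58 and -0.53) were lower. Of 20 regulators of junction assembly, 1 was higher (the kinase Wnk4, 1.19 and 1.23) with either form, 5 were lower with the WT form and 6 with the 6S-A form. Among these were the epithelial transcription factors Grhl2 (-0.85 and -1.43), Elf3 (-0.94 and -1.39) and Ovol1 (-1.62 and -2.05), the myosin light chain kinase Mylk (-2.21 and -2.50) and Micall2 (-0.50 and -0.84). At 8 days, where 0.914% and 1.71% of all genes passed, 1 gene of the 3 lists did, Amotl1 with WT Ngn3 (1.12).

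Markers of the cell types moved with the members at 2 days. Of the 10 ductal epithelial markers, 6 were lower and 0 higher with either form of Ngn3, where 5.23% and 8.62% of all genes were lower, with Krt19 at -1.53 and -2.58 and Epcam at -0.52 and -0.74. Of the 10 endocrine markers, 9 were higher with the WT form and 10 with the 6S-A form, where 6.56% and 9.43% of all genes were. At 8 days 1 ductal marker was lower with the WT form and 2 with the 6S-A form, and 6 and 7 endocrine markers were higher, where 0.914% and 1.71% of all genes passed in either direction. The part of the change in cell state in the levels of single junction genes was not tested. Of the other lists, the acinar Cela1 was lower with WT Ngn3, the endothelial Pecam1 was higher with 6S-A Ngn3, and the immune Cd52 was higher and Csf1r lower with both forms, while all summed levels stayed within the range given above.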

How the data were processed

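RNA from pools of 50 sorted cells was amplified with Smart-seq2 and made into libraries with a kit that keeps no strand. The deposited values are counts of reads per gene, which the authors made by aligning reads to mm10 with GSNAP and counting with HTSeq (0.5.3p3). Reads not aligned, outside genes or ambiguous (22.5%, 14.4% and 8.06%) and 92 spike-in rows stayed out of library sizes. Of 46078 gene identifiers, 45143 had a symbol. The study's limits (under 30% spike-in, over 1000000 reads and over 10000 genes) left out 1 library of 77 (WT Ngn3 replicate 2 at 8 days, 849278 reads), a set that may differ from the one the study analysed, and technical repeats were summed into 3 biological replicates per group.

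Genes detected in at least 5 libraries were tested with edgeR 4.0.16 (R 4.3.3, TMM, robust quasi-likelihood F-test) in 1 fit per day and in a joint fit over the 7 groups for comparisons across days. P-values were adjusted by Benjamini-Hochberg over all genes tested, with a threshold of 0.05. At 8 days the control was the mean of both no-color groups. Fits were tested on simulated counts. DESeq2 1.42.0, other filters and scalings, a replicate block, passage 2 only, the passage as a term (added after seeing the data), the first technical repeat only and leaving out each replicate were run as alternatives. Levels are CPM scaled by TMM over the 21 replicates, per kilobase of merged exons where genes are compared, and floors (3 reads over a group, set against the mean CPM of the other group) and intervals of read ratios cover counting error only. Nothing used here says that replicates came from separate animals, so p-values measure the spread between these replicates.

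The members and lists were chosen with earlier results of these data known, and some genes of these families are not reported here and enter no count of members. Members past the threshold against a control were described by replicate (up to 10 per direction and comparison, the largest log2 fold changes without overlap), those past it elsewhere and those above 50 CPM were named with values, and the rest were given as ranges. Up to 5 genes per direction were named from each list. Promoter windows came from RefSeq, and 49 of the 65 members matched, Cldn9 and Jam3 not among them. Gene positions, lengths and overlaps came from the GENCODE annotation of GRCm38, the assembly of mm10. Figures were drawn with matplotlib 3.10.9.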

Additional observations from a re-analysis of the deposited data

Results flagged for a closer look

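The library left out for its depth (849278 reads), an 8-day pool of WT Ngn3 replicate 2, enters no comparison. In it 13 of the 65 members stood above every no-color replicate of that day, 8 of them from more than 3 reads. Of the 37 members tested at 8 days 12 (32.4%) did so, against 25.5% of all 19696 genes tested, and from more than 3 reads 8 (21.6%) did, against 21.2%. Tjp1 was at 344 CPM, where the highest no-color replicate was at 128 CPM, Cgn at 338 CPM, where it was at 164 CPM, and Cgnl1 at 276 CPM, where it was at 189 CPM. Pard3 was at 219 CPM against 86.2 CPM, Prkci at 128 CPM against 78.3 CPM and Patj at 128 CPM against 112 CPM. Cldn6 was at 73.0 CPM against 46.8 CPM and Jam3 at 23.5 CPM, from 20 reads, against 8.38 CPM. The other 5 had 1 or 2 reads each, Cldn9, Cldn22 and Gja4 at 2.35 CPM and Cldn34c1 and Gja5 at 1.18 CPM. This is 1 shallow library, scaled by its own total, and no test was made.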

How the results depend on the processing

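Of 103 recomputed counts of members past the threshold, 76 stayed within 1.5 times the reported count. These include reported counts of 0 that stayed at 0, in comparisons where few or no genes were called. Over 38 called changes and 485 refits the call was kept in 418, lost in 67 and reversed in 0. At 2 days against GFP only, the count for WT Ngn3 moved to 6 (2 higher, 4 lower) with the first technical repeat only. Between 6S-A and WT Ngn3 at 2 days, where 0 passed, DESeq2's Wald test called 5, all lower, no filter 2, and the first technical repeat only 1. At 8 days WT Ngn3 gave 3 with DESeq2 and 6 without a filter, and 6S-A Ngn3 gave 5 with DESeq2, 7 without a filter and 0 with passage 2 only. Between days, WT Ngn3 gave 1 with DESeq2 and 3 without a filter. Between days 6S-A Ngn3 gave 3 with DESeq2, 4 without a filter, 2 with passage 2 only and 0 with the first technical repeat only, and control cells gave 7, 7, 4 and 0 in that order. With the passage of the 8-day replicates as a term, chosen after seeing the data, the counts between days were 2 for 6S-A Ngn3 and 5 for control cells. The share of all genes called moved as well, at 8 days to 2.8% (DESeq2) and 2.68% (no filter) for the WT form, and to 4.17%, 3.86% and 1.14% (passage 2 only) for the 6S-A form. Between 6S-A and WT Ngn3 at 2 days it was 0.424%, 0.316% and 0.278% under the 3 settings above, and 5.36% for WT Ngn3 against GFP only with the first technical repeat. Between days it was 1.34% and 1.13% for the WT form, 3.66%, 1.93%, 1.17% and 0.0255% for the 6S-A form and 5.8%, 2.63%, 3.94% and 0.0511% for control cells, and 1.67% and 3.74% with the passage term. The cause of these moves was not tested.

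Leaving out 1 replicate gave 13 to 15 members for the WT form and 15 to 18 for the 6S-A form at 2 days and 0 in every fit between them, where 8.25% to 10.1%, 13.8% to 16% and 0% to 0.021% of all genes were called. At 8 days it gave 0 to 1 for WT Ngn3, 1 to 4 for 6S-A Ngn3 and 0 for 6S-A against WT Ngn3 and for the no-color groups, where 0.34% to 1.17%, 0.975% to 1.56% and at most 0.0102% of all genes were called. Between days it gave 0 to 2 for 6S-A Ngn3, 0 to 3 for control cells and 0 for WT Ngn3 and for both changes of effect, where 0.0153% to 0.827%, 0.0357% to 3.8%, 0% to 0.168% and at most 0.0919% of all genes were called. With the first technical repeat only, the calls lost at 2 days included Cldn3, Cldn7, Prkci, Pard6b and Cgn with WT Ngn3, and Cldn11, Crb3, Ocln and Cgn with 6S-A Ngn3.

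Same-numbered replicates correlated in their deviations from the group means by 0.0436 to 0.184 over 9 pairs at 2 days and 0.069 to 0.478 over 18 pairs at 8 days. Pairs with different numbers correlated by -0.148 to -0.00149 over 18 pairs at 2 days and -0.322 to 0.103 over 36 pairs at 8 days. Not every pair was above 0.1 and the labels tie no number to a shared animal or day, although number 3 at 8 days is passage 5 in every group, so the numbers were not used as pairs. All 9 replicates at 2 days and all 12 at 8 days correlated best with their own number. With the replicate block, the count was 5 (Cldn2, Cldn3, Cldn7, Pard6b and Prkci, all lower, with 0.617% of all genes called) for 6S-A against WT Ngn3 at 2 days, 2 for the WT form and 6 for the 6S-A form at 8 days, and 1, 3 and 8 between days for WT Ngn3, 6S-A Ngn3 and control cells, where 1.66%, 3.98% and 8.14% of all genes were called, and it stayed within 1.5 times elsewhere. Against GFP only the block added Ocln and Gjb5 with WT Ngn3, added Gja1, Patj and Jam2 with 6S-A Ngn3, and left Gjd2 with 6S-A Ngn3 at an adjusted p of 0.0691. Depth limits the members under 1 CPM, where 1 replicate often decides the value, and the 8-day replicates, the shallowest of which held 2397470 reads.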
